A study of Mus musculus with 8 samples.

Results

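The phospholipase C enzymes are described here through 8 of their genes, Plcb1, Plcb3, Plcb4, Plcd1, Plcd4, Plce1, Plcg1 and Plcg2, in the ovaries of obese Lethal Yellow mice treated with pioglitazone or with vehicle. Every probe that the array annotation gave to 1 of these genes alone was taken, which came to 12 probes of 36227 on the array, whose probes named 18069 genes. Of the genes, 5 had a single probe. Plcb4 and Plcd4 had a pair each and Plce1 had 3.

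Pioglitazone, a thiazolidinedione that activates the nuclear receptor PPARγ, was given by daily gavage in DMSO to 4 female C57BL/6J Ay/a mice from 120 to 180 days of age, at 0.1 mg per day according to the labels. The text of the study gives a lower dose, and which was used was not settled here. The 4 vehicle mice were female C57BL/6J Ay/a mice gavaged with DMSO over the same 60 days. All 8 mice carried the Ay allele, which drives agouti expression throughout the body and makes the animals obese, so drug and vehicle were compared on an obese background alone, and lean mice were not analysed here. Whole ovaries were cleaned of adhering fat, and each value is the RNA of many cell types from 1 mouse: fewer cells of a type and less RNA per cell cannot be told apart. The stage of the estrous cycle is not given in the sources used here.

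Phospholipase C cleaves the membrane lipid phosphatidylinositol bisphosphate into inositol trisphosphate, which releases calcium from the endoplasmic reticulum, and diacylglycerol, which activates protein kinase C. The β enzymes are driven by Gq proteins behind hormone receptors, the γ enzymes by tyrosine kinases, the ε enzyme by small GTPases of the Ras family, and the δ enzymes respond to calcium. In the ovary this route carries, among others, the signal of prostaglandin F2α in the corpus luteum, and at fertilization a sperm-borne member of the family, phospholipase C ζ, starts the calcium oscillations of the egg.

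The members were in part chosen by the measured difference between pioglitazone and vehicle on these arrays. Plce1 and Plcd4 are in the study's list of genes changed by pioglitazone, and the other genes were set beside them as relatives. The comparison of pioglitazone with vehicle is therefore given for these probes as a description, without a test, and tests are kept for the other genes of the pathway and for variation between mice that is left once the group means are removed.

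RefSeq (GRCm38.p6) held 11 promoters for the 8 genes, and the 250 bases before the annotated start of 4 of them are shown for the genes of the study's list and for the single member with a nuclear receptor half-site. Capitals mark the half-site AGGTCA, the GC box GGGCGG and the CCAAT box, each searched on both strands.
Plcb3, chr19:6969815-6970064, minus strand: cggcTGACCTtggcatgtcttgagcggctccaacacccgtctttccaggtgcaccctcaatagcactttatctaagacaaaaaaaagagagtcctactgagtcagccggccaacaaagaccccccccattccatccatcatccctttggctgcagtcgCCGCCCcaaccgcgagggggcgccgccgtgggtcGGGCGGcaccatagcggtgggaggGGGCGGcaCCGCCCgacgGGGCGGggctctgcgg
Plcd4, first start, chr1:74542639-74542888, plus strand: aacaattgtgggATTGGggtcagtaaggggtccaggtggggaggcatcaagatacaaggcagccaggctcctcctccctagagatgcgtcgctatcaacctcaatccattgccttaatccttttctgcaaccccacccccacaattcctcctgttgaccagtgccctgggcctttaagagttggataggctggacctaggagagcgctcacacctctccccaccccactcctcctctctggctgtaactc
Plcd4, second start, chr1:74544110-74544359, plus strand: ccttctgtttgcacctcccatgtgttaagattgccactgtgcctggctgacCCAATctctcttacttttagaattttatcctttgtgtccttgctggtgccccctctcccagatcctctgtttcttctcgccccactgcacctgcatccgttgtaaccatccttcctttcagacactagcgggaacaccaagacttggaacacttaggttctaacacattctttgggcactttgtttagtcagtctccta
Plce1, chr19:38523947-38524196, plus strand: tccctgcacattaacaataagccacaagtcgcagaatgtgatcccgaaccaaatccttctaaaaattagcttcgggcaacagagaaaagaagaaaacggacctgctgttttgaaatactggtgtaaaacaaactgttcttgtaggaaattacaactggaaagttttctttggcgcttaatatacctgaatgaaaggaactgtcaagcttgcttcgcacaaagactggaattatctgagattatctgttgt

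The half-site bound by PPARγ and other nuclear receptors was present in 1 of the 11 promoters, that of Plcb3, against 14.0% of the 32851 promoters in the RefSeq table. The full element of PPARγ with its partner RXR, which is AGGTCA repeated in the same direction with 1 base of any kind between the copies, was in 0 of the 11, against 0.0335% of all promoters. The GC box was in 7 of the 11 and in 32.7% of all. The letters TATAAA were in 0 of the 11 and in 12.4% of all, and CCAAT was in 3 of the 11 and in 33.8% of all. The GC content of the Plcb3 window was 64.4%, and that of Plce1 was 38.8%, against a median of 52.4% over all promoters. The 2 Plcd4 windows held 55.6% and 48% GC and had a CCAAT box each. These letter matches are descriptions of short windows, and no binding was measured.

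Facts of the whole array touch the values below. The arrays correlated with each other at 0.949 to 0.987 on the log2 scale across probes, and 82.5% to 83.9% of the probes of an array lay at 0.2 relative intensity units or more, the limit of sensitivity. Missing spots numbered 47 and 51 on the arrays of pioglitazone mice 3 and 4, against 137 to 211 on the other 6 arrays. All 5 granulosa cell markers with a probe, 4 of 5 oocyte markers and the theca cell enzyme gene Cyp17a1 were at 0.2 or more in every mouse. The remaining oocyte marker, Bmp15, had missing spots and was read only in pioglitazone mice 3 and 4, at 1.78 and 1.64. The T cell marker Cd3e was under 0.2 in every mouse. The summed level of 4 adipocyte markers ran over 14.4 to 106.5 in pioglitazone mice and over 24.3 to 59.6 in vehicle mice, with the highest sum in pioglitazone mouse 1. The summed level of 6 striated muscle markers ran over 1.34 to 3.28 in pioglitazone mice and over 1.04 to 1.37 in vehicle mice. Of the 6, Myh4 and Tnnt3 averaged under 0.2 in both groups and were not tested. Mybpc1 and Trdn were called higher, where 1.97% of all tested probes were. Trdn is itself in the study's list. It entered the fit only through its pioglitazone mean of 0.479, with a vehicle mean of 0.135, so nothing is read from its call. Mybpc1 averaged 0.947 in pioglitazone mice and 0.274 in vehicle mice. Most of the gap between the summed levels lay in Mybpc1 and Trdn. Acta1 averaged 0.267 in pioglitazone mice and 0.217 in vehicle mice. Another muscle gene of the 6, Ckm, averaged 0.226 in pioglitazone mice and 0.290 in vehicle mice.

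**Figure D1:**
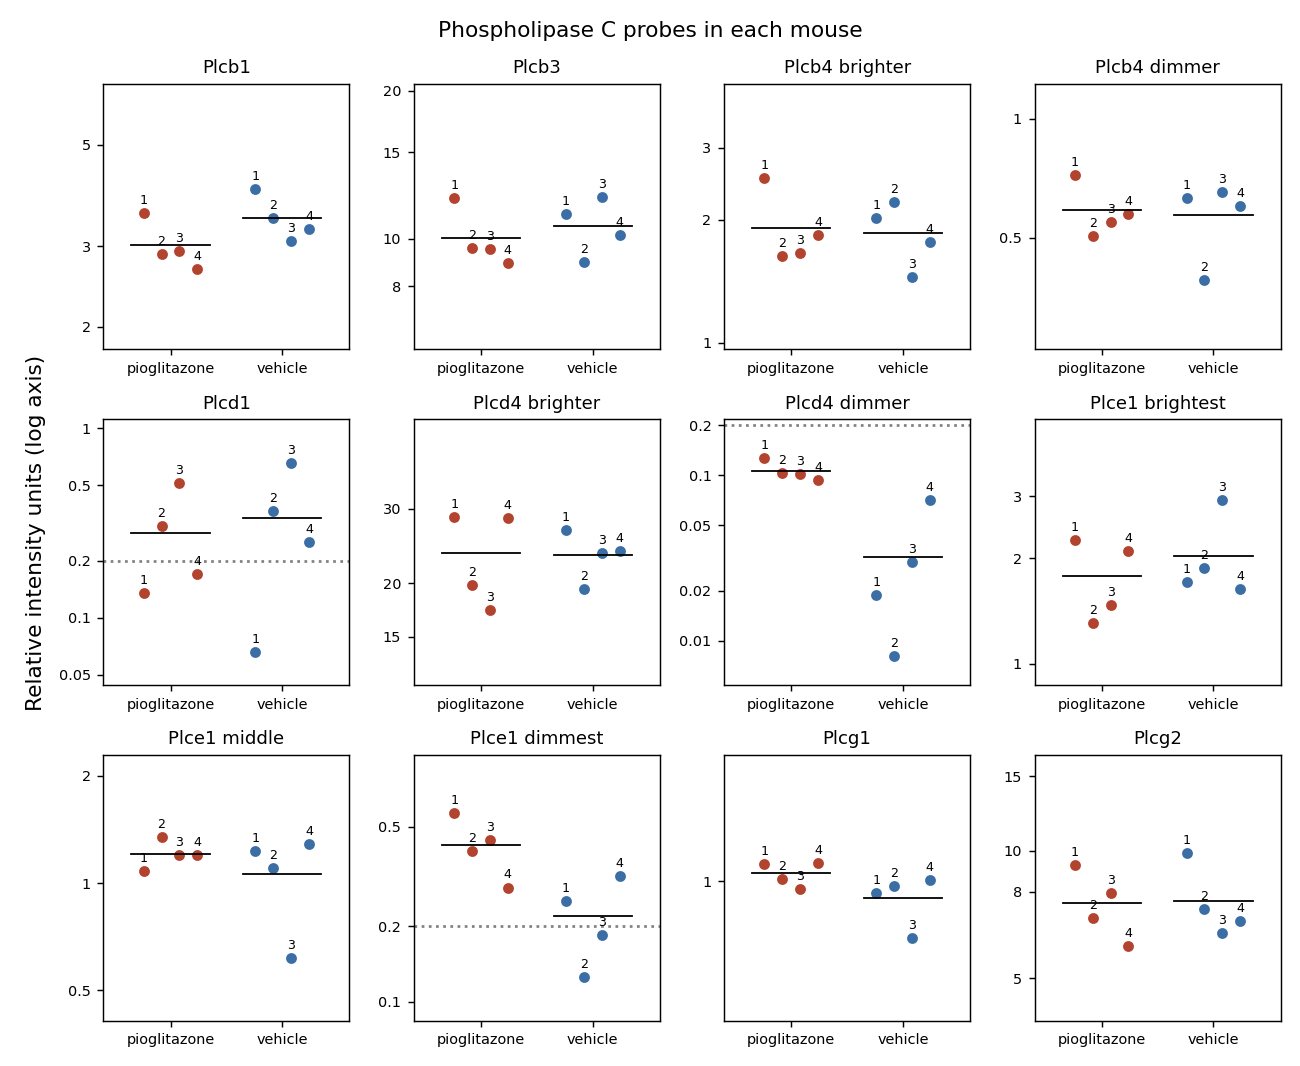
Relative intensity (log scale) of each of the 12 phospholipase C probes in every mouse, pioglitazone left and vehicle right in each panel, with the mouse number beside each point and a bar at the group mean. The groups overlap in 11 of the 12 panels, and in the dimmer Plcd4 probe, where they do not, all 8 mice lie under the limit of sensitivity of 0.2.

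The β enzymes, which act behind Gq-coupled receptors, were detected in every mouse. Plcb1 had 3.55, 2.89, 2.93 and 2.68 relative intensity units in pioglitazone mice 1 to 4, against 4.00, 3.46, 3.08 and 3.27 in vehicle mice 1 to 4. Of the pioglitazone mice, 3 lay under every vehicle mouse, and pioglitazone mouse 1 lay inside the vehicle range. The means were 3.01 ± 0.375 in pioglitazone mice and 3.45 ± 0.398 in vehicle mice (SD, n = 4 each). Their ratio was 0.872 and the fitted log2 fold change -0.20 (SE 0.149).

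Plcb3 had 12.1, 9.56, 9.54 and 8.93 units in pioglitazone mice 1 to 4, against 11.2, 8.98, 12.2 and 10.2 in vehicle mice 1 to 4. The groups covered nearly the same range, and the log2 fold change was -0.08 (SE 0.158). Plcb4, best known from retina and cerebellum, was read by a pair of probes. Its brighter probe (GenBank BC061201) had 2.53, 1.63, 1.66 and 1.83 units in pioglitazone mice 1 to 4, against 2.02, 2.21, 1.44 and 1.76 in vehicle mice 1 to 4. The highest value was that of pioglitazone mouse 1 and the lowest that of vehicle mouse 3. Its dimmer probe (BB694813) had 0.722, 0.504, 0.549 and 0.573 units in pioglitazone mice 1 to 4, against 0.631, 0.391, 0.653 and 0.603 in vehicle mice 1 to 4. Both Plcb4 probes gave a ratio of means of 1.03, with log2 fold changes of 0.04 (SE 0.197) and 0.06 (SE 0.201).

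The γ enzymes bind phosphorylated tyrosine kinases and their adaptors. Plcg1, the widely expressed form, had 1.09, 1.01, 0.964 and 1.09 units in pioglitazone mice 1 to 4, against 0.945, 0.976, 0.755 and 1.01 in vehicle mice 1 to 4. It varied little, with a coefficient of variation of 5.99% in pioglitazone mice and 12.3% in vehicle mice, where the median tested probe had 18.0% and 19.1%. The log2 fold change of 0.18 (SE 0.142) was a ratio of 1.13. Plcg2, the form of blood cells, had 9.27, 6.93, 7.96 and 5.95 units in pioglitazone mice 1 to 4, against 9.88, 7.29, 6.39 and 6.84 in vehicle mice 1 to 4. Mouse 1 was the highest of its group in both groups, and the group means were nearly equal, at 7.53 ± 1.42 in pioglitazone mice and 7.60 ± 1.56 in vehicle mice (SD, n = 4 each). The summed level of 8 leukocyte markers ran over 48.6 to 67.4 in pioglitazone mice and over 58.1 to 86.0 in vehicle mice. Of the 8, Cd3e was under the filter and not tested, and 2 were called, where 5.5% of all tested probes were. Both are genes of B cells and went in opposite directions. Cd79a averaged 4.54 in pioglitazone mice and 6.10 in vehicle mice, and Ms4a1 averaged 0.403 in pioglitazone mice and 0.323 in vehicle mice. The part of leukocytes in the Plcg2 values was not tested.

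Plcd4 was read by a pair of probes that gave different accounts. The probe in the study's list (NM_148937) had 0.128, 0.103, 0.101 and 0.0942 units in pioglitazone mice 1 to 4, against 0.0189, 0.00809, 0.0300 and 0.0713 in vehicle mice 1 to 4. Every pioglitazone mouse lay above every vehicle mouse, but all 8 values were under the limit of sensitivity, so the probe stayed out of the fit and is given no fold change. The study's text says that genes under this limit in both groups were excluded from its list. On the values as scaled here, this listed probe would not pass that filter. Among the 3191 probes that were under 0.2 on all arrays, 1.25% had all pioglitazone mice above all vehicle mice and 2.7% had groups that did not overlap in either direction.

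The brighter Plcd4 probe (AK014836) had 28.6, 19.8, 17.3 and 28.5 units in pioglitazone mice 1 to 4, against 26.7, 19.4, 23.5 and 23.8 in vehicle mice 1 to 4. These values were far above the limit and the groups overlapped, with the highest and the lowest value both in the pioglitazone group. Means were 23.5 ± 5.85 in pioglitazone mice and 23.4 ± 3.03 in vehicle mice (SD, n = 4 each), and the fitted log2 fold change was -0.01 (SE 0.203).

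Plce1 encodes the ε enzyme, an effector of Ras that also carries an exchange factor domain for Rap1. Its probe in the study's list (BC025027) was the dimmest of its 3, with 0.566, 0.399, 0.444 and 0.286 units in pioglitazone mice 1 to 4, against 0.252, 0.126, 0.184 and 0.317 in vehicle mice 1 to 4. Pioglitazone mice 1, 2 and 3 lay above every vehicle mouse, pioglitazone mouse 4 lay under vehicle mouse 4, and vehicle mice 2 and 3 were under the limit of 0.2. The ratio of means was 1.93, from 0.424 ± 0.116 in pioglitazone mice and 0.220 ± 0.0828 in vehicle mice (SD, n = 4 each), and the log2 fold change was 0.99 (SE 0.307).

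The middle Plce1 probe (NM_019588) had 1.08, 1.34, 1.20 and 1.20 units in pioglitazone mice 1 to 4, against 1.23, 1.10, 0.615 and 1.29 in vehicle mice 1 to 4. Vehicle mouse 3 stood below the other 7, and the log2 fold change was 0.24 (SE 0.235). The brightest probe (BB492921) had 2.25, 1.31, 1.47 and 2.10 units in pioglitazone mice 1 to 4, against 1.71, 1.87, 2.92 and 1.63 in vehicle mice 1 to 4. Here vehicle mouse 3 was the highest of all, and the log2 fold change was -0.19 (SE 0.247). The 3 probes of Plce1 thus gave 1 negative and 2 positive estimates.

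**Figure D2:**
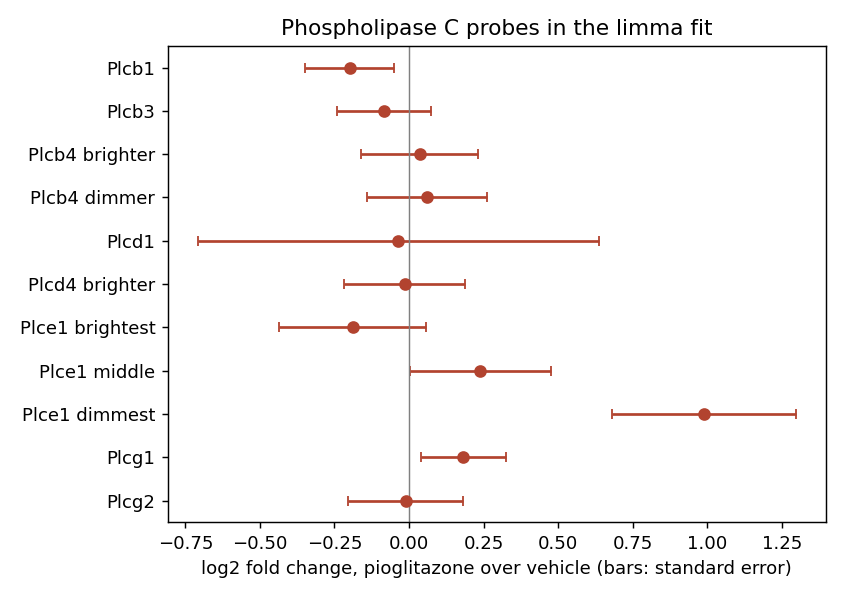
Log2 fold change of pioglitazone over vehicle for the 11 phospholipase C probes in the limma fit, with bars of 1 standard error. The dimmest Plce1 probe lies at 0.99, the other 10 lie within 0.3 of 0, and the bar of Plcd1 is the widest.

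Of the 11 member probes in the fit, 1 was called, the dimmest Plce1 probe, where 5.5% of all 30634 tested probes were called, 1.97% higher and 3.53% lower. The choice of the members used this contrast, so nothing is read from that count. No probe of the array passed after Benjamini-Hochberg adjustment in limma, where 1685 passed unadjusted and the smallest adjusted p was 0.599. The 11 log2 fold changes had a median of -0.01, beside -0.03 over all tested probes, with 5 positive and 6 negative. The signs of the small changes depended on the scaling, with 7 positive and 4 negative after quantile and 8 positive and 3 negative after cyclic loess normalization. The dimmest Plce1 probe lay in the lowest intensity class of the array. Among tested probes whose higher group mean lay between 0.2 and 0.5, 7.37% were called, against 4.15% between 0.5 and 2, 6.62% between 2 and 8 and 4.53% at 8 or more. A pioglitazone mean of at least 1.5 times the vehicle mean, called or not, was seen for 5.05% of the probes in that lowest class, and for 0.976%, 0.707% and 0.165% in the classes above it. Agreement between probes of a gene was counted over the array: of 258 named genes with at least 2 tested probes and a call, 2 had a second probe called the same way.

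A level read by several probes of a gene can be followed over the mice independently of the drug, by removing each group's mean. Over the 8 mice, the brightest and middle Plce1 probes ran opposite to each other, with r = -0.834 (exact permutation p = 0.00174 two-sided within groups, the smallest that these permutations can give; adjusted p = 0.00694 over 4 probe pairs) and a Spearman rank correlation of -0.833 (exact permutation p = 0.00347, adjusted p = 0.0139). The 2 mice farthest from the median of the brightest probe were pioglitazone mouse 2 and vehicle mouse 3. Without them r was -0.596 over the other 6 mice and did not pass the threshold (exact permutation p = 0.194). Leaving out the extremes of a probe narrows its range and leaves fewer arrangements. This step therefore cannot decide whether the relation rests on those mice. With any 1 mouse left out, r ran over -0.88 to -0.79. These permutations moved mice freely within each group. With same-numbered mice moved together, of which 24 arrangements exist, the exact permutation p for r was 0.0417, the smallest they can give. After adjustment over 4 probe pairs it was 0.167. A single pair at the smallest value cannot pass this adjustment, so these permutations could not decide on the relation. The level of the brightest probe over that of the middle probe, within each mouse, was 2.08, 0.971, 1.23 and 1.75 in pioglitazone mice 1 to 4 and 1.39, 1.69, 4.75 and 1.26 in vehicle mice 1 to 4; this ratio depends on how each probe binds and is no ratio of transcripts.

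The other pairs showed no relation past the threshold. The dimmest Plce1 probe had r = -0.210 with the brightest (Spearman rank correlation -0.310) and r = 0.230 with the middle one (Spearman rank correlation 0.381), with exact permutation p-values of 0.642 and 0.707 for r and of 0.490 and 0.472 for the rank correlation. The pair of Plcb4 probes had r = -0.00611 and a Spearman rank correlation of 0.119 (exact permutation p = 0.991 and 0.830). No pair of probes of Plce1 or Plcb4 had a positive correlation past the threshold, and the probes' positions in the transcripts are not given in the sources used here.

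**Figure D3:**
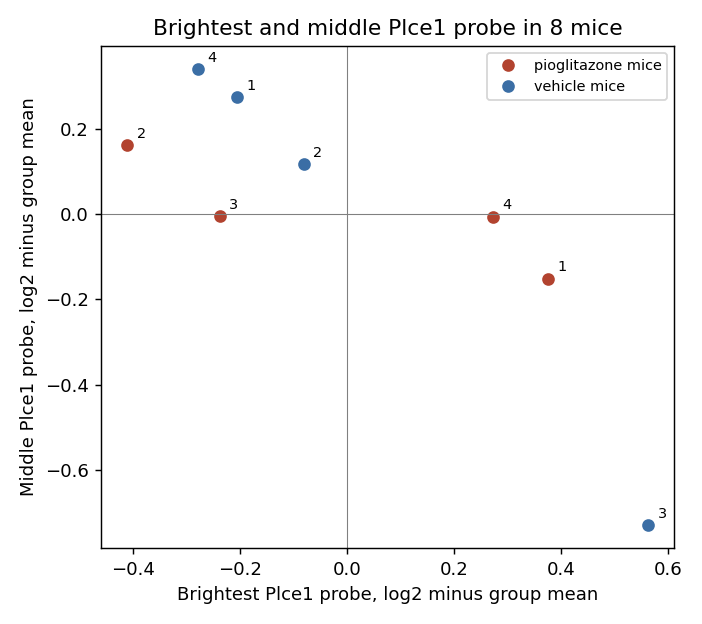
The brightest Plce1 probe (horizontal) and the middle one (vertical) in the 8 mice, as log2 values with each group's mean removed, with pioglitazone and vehicle mice in separate colours and the mouse number beside each point. The probes run opposite to each other (r = -0.834), with vehicle mouse 3 farthest from the rest.

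Plcd1, a calcium-responsive enzyme with wide tissue expression, had the widest spread between mice among the 11 probes that passed the filter on low values. It had 0.135, 0.306, 0.511 and 0.170 units in pioglitazone mice 1 to 4, against 0.0662, 0.367, 0.655 and 0.250 in vehicle mice 1 to 4. Mice 2 and 3 lay above mice 1 and 4 in both groups, with mouse 3 the highest. Pioglitazone mice 1 and 4 and vehicle mouse 1 were under 0.2, so that the order of the 2 low pioglitazone mice is not settled. The coefficient of variation was 60.8% in pioglitazone mice and 73.8% in vehicle mice, and the log2 fold change between the groups was -0.04 (SE 0.672, or 0.270 with the replicate number as a block).

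Of 30504 tested probes with a value on every array, 5.94% had mice 2 and 3 above mice 1 and 4 in both groups, and 10.8% had them under mice 1 and 4 in both. A limma F test of the replicate number, run after the Plcd1 values were seen, gave an adjusted p of 0.135 for Plcd1 (unadjusted 0.00153), and it called no probe of the array after adjustment, where 16.2% passed unadjusted. Among the probes low in mice 2 and 3 was Cyp17a1, the androgen-producing enzyme of theca cells, which was looked at after its values were seen: it had 228, 75.6, 9.07 and 77.9 units in pioglitazone mice 1 to 4, against 297, 17.7, 7.17 and 170 in vehicle mice 1 to 4. Star, which brings cholesterol into the mitochondria of steroid-making cells and was also looked at after its values were seen, had 6.40, 14.2, 39.6 and 7.08 units in pioglitazone mice 1 to 4, against 22.8, 36.7, 40.4 and 10.3 in vehicle mice 1 to 4. Its highest value was in mouse 3 of each group, as for Plcd1. The part of cell type in this order was not tested.

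Ptgfr, the Gq-coupled receptor through which prostaglandin F2α acts on the corpus luteum, was likewise picked after its values were seen. It had 0.315, 6.48, 3.78 and 0.255 units in pioglitazone mice 1 to 4, against 0.368, 5.43, 1.81 and 0.632 in vehicle mice 1 to 4. Mice 2 and 3 were high and mice 1 and 4 low in both groups, as for Plcd1, though with mouse 2 above mouse 3. The limma F test of the replicate number gave an adjusted p of 0.0929, and between pioglitazone and vehicle the log2 fold change was -0.05 (SE 1.19).

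**Figure D4:**
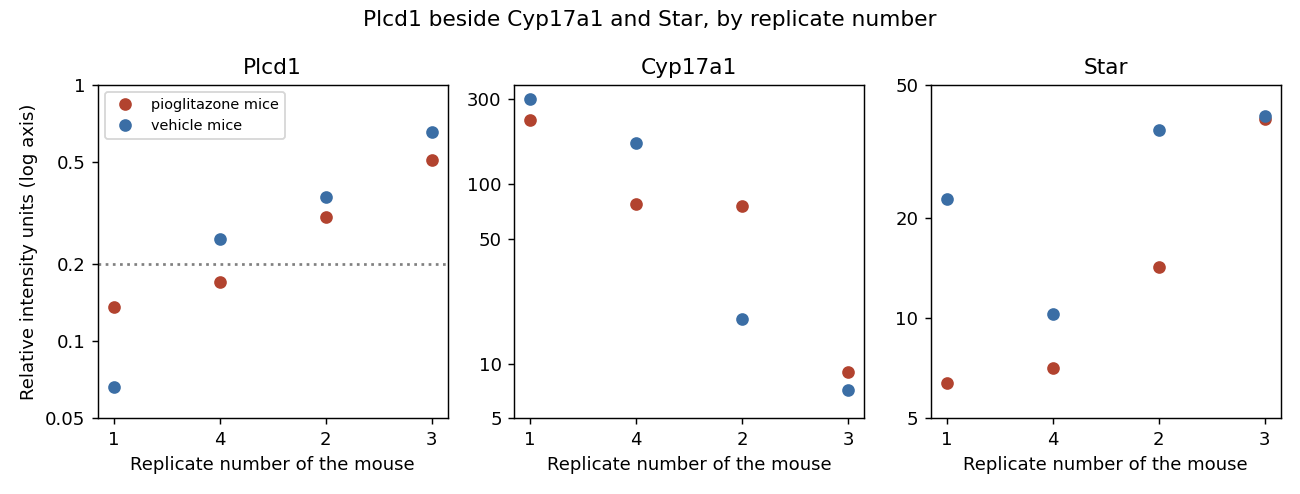
Relative intensity (log axis) of Plcd1, Cyp17a1 and Star, a panel each, by replicate number in the order 1, 4, 2 and 3, with a point per mouse in separate colours for pioglitazone and vehicle mice and a dotted line at the limit of sensitivity of 0.2. Replicates 2 and 3 hold the higher Plcd1 values and the lower Cyp17a1 values within each group.

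The other members shared less of a pattern. Pioglitazone mouse 1 was the highest of its group in 9 of the 12 member probes, where it was so in 49.2% of all tested probes. It was also the mouse with the highest adipocyte marker sum, 106.5, and its Adipoq level was 40.2; the part of this in the member values was not tested. Of the 12 probes, 9 were at 0.2 or more in every mouse, and the 3 that were not were those of Plcd1, the dimmer Plcd4 probe and the dimmest Plce1 probe. Among the 9, the ratio of the pioglitazone mean to the vehicle mean ran over 0.872 to 1.14.

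The genes whose log2 values ran closest to a member over the 8 mice, with group means removed, were taken from 14529 candidates. For Plcd1 they were 4931431B13Rik (r = 0.992), Hoxc13 (0.992) and Nhsl2 (0.989). For the brighter Plcd4 probe they were Otor (0.995), Adal (0.982) and Tonsl (0.976). For the brightest Plce1 probe they were Epha3, an ephrin receptor (0.996), Cldn19, a claudin of tight junctions (0.993), and Ces1e (0.986). The closest gene of each of the other 5 members had r of 0.981 to 0.994. These are descriptions over 8 arrays that share scaling, with no test.

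The enzymes work within a pathway, and a list of 144 genes acting before and after them was compared between pioglitazone and vehicle, each gene by its brightest probe. Of these, 124 had a probe and 108 entered the fit. Of the 108, 2 were called, both higher in pioglitazone mice, or 1.85%, where 4.85% of the brightest probes of all 16073 named genes were called (1.57% higher, 3.27% lower), and 0 passed after adjustment over all probes, with a smallest adjusted p of 0.837 in limma. The median log2 fold change was -0.02, with 46 positive and 62 negative. Neither the count nor its direction was steady: 7 genes were called with array weights (4 higher, 3 lower) and 7 without vehicle mouse 4 (4 higher, 3 lower), 5 without pioglitazone mouse 1 (2 higher, 3 lower), 5 without vehicle mouse 3 (4 higher, 1 lower), 4 without pioglitazone mouse 3 (1 higher, 3 lower) and 1 without pioglitazone mouse 4.

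Both called genes lay in the diacylglycerol arm, where they were 2 of 19 tested. Trpc6, a calcium-permeable channel opened by diacylglycerol, had 1.47, 1.36, 2.00 and 1.90 units in pioglitazone mice 1 to 4, against 1.27, 1.23, 0.762 and 1.17 in vehicle mice 1 to 4. The groups did not overlap, as in 4.59% of all tested probes. The log2 fold change was 0.61 (SE 0.211; limma unadjusted p = 0.0173, adjusted p = 0.837), and without pioglitazone mouse 3 it was 0.52 and no longer called. Prkcb, protein kinase C β, had 0.242, 0.371, 0.410 and 0.264 units in pioglitazone mice 1 to 4, against 0.144, 0.116, 0.261 and 0.292 in vehicle mice 1 to 4. These groups overlapped, vehicle mice 1 and 2 lay under 0.2, and the log2 fold change of 0.73 (SE 0.321; limma unadjusted p = 0.0472, adjusted p = 0.837) was called under 9 of 21 other settings. It was 0.42 with a floor of 0.2, and the call was also lost after quantile and cyclic loess normalization, with no filter, with an intensity trend, in the methods' test and with unequal variances, and without any 1 of 5 mice: 0.60 and 0.50 without vehicle mice 1 and 2, and 0.65, 0.61 and 0.82 without pioglitazone mice 2, 3 and 4. Prkd1, protein kinase D1, averaged 3.49 units in pioglitazone mice and 2.72 in vehicle mice and was not called.

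In the other roles no gene of the list was called in the fit as described. The receptor list did not hold Ptger1, a prostaglandin E receptor gene that the study lists as higher with pioglitazone. The receptor counts therefore do not cover it. Among 17 tested receptors coupled to Gq, Chrm1, a muscarinic acetylcholine receptor, came nearest, with 0.715 ± 0.0232 units in pioglitazone mice and 0.595 ± 0.0180 in vehicle mice (SD, n = 4 each) and a log2 fold change of 0.27 (SE 0.118; limma unadjusted p = 0.0500). The groups did not overlap, as in 4.59% of all tested probes. Those of Adra1b did not overlap either, in the other direction, with means of 2.27 in pioglitazone mice and 2.68 in vehicle mice. Of the 17 receptors, 12 had a negative and 5 a positive log2 fold change. Chrm1 lay at the threshold: it was called under 10 of 14 other settings with all mice, the methods' test among them, and under 0 of the 8 with a mouse left out. Agtr1b averaged 0.202 and S1pr3 0.888 units in pioglitazone mice, against 0.145 and 0.726 in vehicle mice. Agtr1b entered the fit only through its pioglitazone mean, and its log2 fold change of 0.57 was 0.07 with a floor of 0.2, so nothing is read from it. Of the 19 G proteins, small GTPases and adaptors, Rgs2, which limits Gq signalling, averaged 151 units in pioglitazone mice and 116 in vehicle mice, a log2 fold change of 0.41 that was not called. It was called after quantile (0.66) and cyclic loess normalization (0.54), and it was 0.19 without vehicle mouse 3 and 0.13 with array weights. The Gq family member Gna11 averaged 8.91 and Rhoa 24.4 units in pioglitazone mice, against 10.2 and 29.1 in vehicle mice.

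Other enzymes of the family were also measured. Plch1 averaged 1.54 ± 0.599 units in pioglitazone mice and 0.995 ± 0.226 in vehicle mice (SD, n = 4 each), and its relative Plch2 averaged 4.78 in pioglitazone mice and 3.54 in vehicle mice; both had a log2 fold change of 0.57, and neither was called. Plch2 was at 1.45 in vehicle mouse 2, and without that mouse its log2 fold change was 0.19. Plch1 was called without vehicle mouse 4 (0.72), pioglitazone mouse 2 (0.72) or pioglitazone mouse 3 (0.74). Plcxd3 averaged 0.390 units in pioglitazone mice and 0.342 in vehicle mice. Plcz1, the sperm form, was under 0.2 in every mouse.

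Of 18 genes that supply or remove the lipid substrate, 14 had a negative log2 fold change and 0 were called. The whole array leaned the same way, with a median of -0.03 over all tested probes and 35.8% of the calls higher. That share was 46.4% after quantile and 46.8% after cyclic loess normalization, so the lean of the array depends on the scaling. Its part in the 14 was not tested. The share of all tested probes with a negative log2 fold change is not given here. Neither these 14 nor the negative receptors can therefore be set against such a share. Pitpna, a phosphatidylinositol transfer protein, averaged 9.61 units in pioglitazone mice and 12.5 in vehicle mice (log2 fold change -0.38), Pip5k1b, a kinase that makes the substrate, averaged 1.23 in pioglitazone mice and 1.73 in vehicle mice, and Synj2, a phosphatase that removes it, averaged 3.05 in pioglitazone mice and 3.82 in vehicle mice. In the inositol trisphosphate and calcium arm 29 genes were tested. Itpr3, a receptor for inositol trisphosphate, averaged 0.420 units in pioglitazone mice and 0.319 in vehicle mice, and Inpp1 and Itpk1, which metabolize inositol phosphates, averaged 1.11 and 7.54 in pioglitazone mice, against 1.36 and 9.08 in vehicle mice. With the replicate number as a block the pathway had 4 calls of 108 and 0 after adjustment. Trpc6 and Prkcb were higher and Pitpna and Prkca lower. In that fit 8.6% of all tested probes were called, a share over every probe and not over the brightest probe of each gene. Prkca, protein kinase C α, averaged 1.12 units in pioglitazone mice and 1.61 in vehicle mice.

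**Figure D5:**
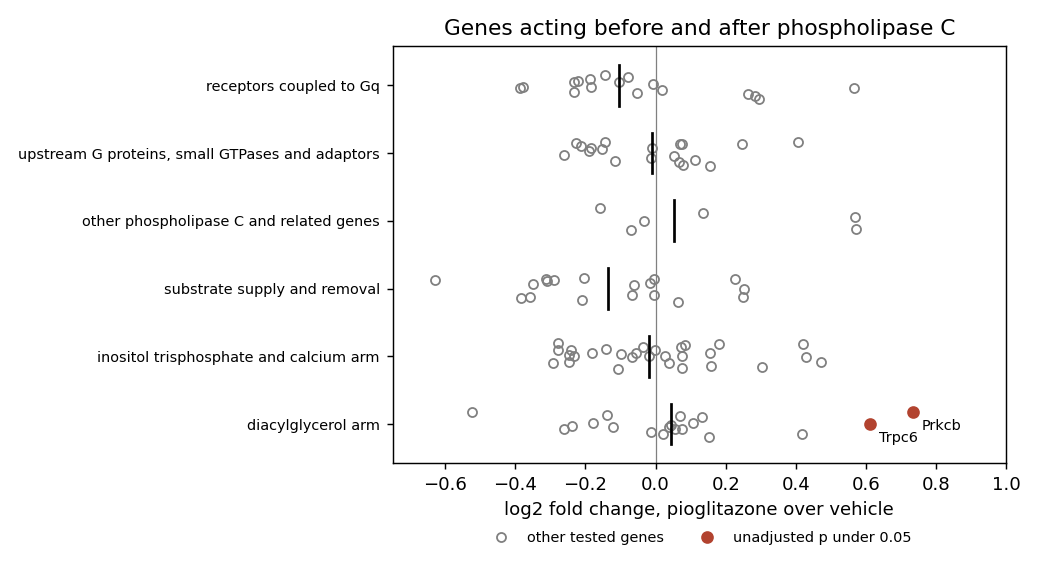
Log2 fold change of pioglitazone over vehicle for the 108 tested pathway genes by role, with a bar at the median of each role and filled points for an unadjusted p under 0.05. The role medians lie between -0.14 and 0.05, and the filled points are Trpc6 and Prkcb.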

How the data were processed

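Ovarian RNA from 8 mice was measured on 8 single-colour CodeLink Whole Mouse Genome arrays of 30-base probes, 1 array per mouse. The deposited values are background-corrected spot intensities (relative intensity units) which the authors scaled to the median of each array, and which were given without counts, so depth is unknown and the number of arrays limits the precision. The methods also name a scaling of each gene to a median, which was not seen in the values. The code for missing spots (-9999) was read as missing.

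Each value was divided by its array median, a floor of 0.05 was set and log2 was taken. A probe entered the fit where both groups had 3 or more values and the higher group mean reached 0.2 units, which the study's text gives as the limit of detection. The fit used limma (version 3.58.1, under R 4.3.3), its functions lmFit and eBayes, with group as the only term over all 8 arrays, with Benjamini-Hochberg adjustment over 30634 probes. A call was an unadjusted p under 0.05. Simulated arrays with known changes were used to check these steps.

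Gene names came from the platform annotation, updated through RefSeq, which listed 22296 probes, of which 21615 named 1 gene and 681 several. Probes with several genes were named for none. By the rule used here the replicate numbers of the labels paired the mice. Same-numbered mice of the 2 groups correlated after removal of the group means (0.504, 0.180, 0.273 and 0.213 for numbers 1, 2, 3 and 4). Unlike-numbered mice ran over -0.521 to 0.370. Pioglitazone mouse 3 with vehicle mouse 2, at 0.370, lay above the same-numbered values of 2, 3 and 4. The pairing is therefore not clear, and fits with the replicate number as a block were run beside the fit without it. What the numbers stand for is not given in the sources used here.

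The members, the pathway list and the marker lists were chosen with earlier results of these data known. The genes named are every probe of a member and up to 3 genes of each pathway role by unadjusted p. Also named are the 3 genes most like each member. Genes named outside this rule (Adra1b, Prkca, Plcz1, Ptgfr and the cell type markers) were picked after their values were seen. Alternatives covered the floor, scaling, filter, moderation, array weights, the methods' t-test and a test with unequal variances, the block, the choice of probe and each array left out.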

Additional observations from a re-analysis of the deposited data

How the results depend on the processing

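The probes called over the whole array numbered 1685, between 1490 and 2130 under the other settings, and 2635 in the replicate block fit. With 1 mouse left out they ran over 737 to 2443, with 737 without pioglitazone mouse 4; the adjusted count ran over 0 to 0. Of the calls 35.8% were higher, against 46.4% after quantile and 46.8% after cyclic loess normalization. Among the member probes 1 was called, 2 with no filter (the dimmer Plcd4 probe was added) and 0 where at least 0.2 was asked in every array, which removes the dimmest Plce1 probe, and over 1 to 1 with 1 mouse left out; with the block it was 1.

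The pathway count of 2 was 1 with a floor of 0.2, 7 with array weights and 4 with the replicate block. It ran over 1 to 7 with 1 mouse left out, with 5 without vehicle mouse 3, 7 without vehicle mouse 4, 5 without pioglitazone mouse 1, 4 without pioglitazone mouse 3 and 1 without pioglitazone mouse 4; the cause was not tested. Plcxd3 had log2 fold changes over -0.0949 to 0.296 with 1 mouse left out, the lowest without pioglitazone mouse 4. The number of related probe pairs was 1, and 1 to 1 with 1 mouse left out. With 1 mouse left out, r ran over -0.88 to -0.79 for the brightest and middle Plce1 probes. It ran over -0.62 to 0.73 for Plcb4 and over -0.0349 to 0.459 for the middle and dimmest Plce1 probes. The number was 0 with same-numbered mice permuted together (the replicate block, added after the data were seen). There a single pair could not pass after adjustment, so that count decides nothing. Of the 24 genes most like the members, 5 were kept after quantile and 10 after cyclic loess normalization, and 5 to 11 with 1 mouse left out. The F test of replicate number called 1 member, Plcd1, with a floor of 0.2, and 0 to 0 with 1 mouse left out.

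With 1 mouse left out the sign of the log2 fold change turned for both Plcb4 probes, the brighter Plcd4 probe, the middle Plce1 probe, Plcg2 and Plcd1, which ran over -0.68 to 0.43. After quantile or cyclic loess normalization it turned for the brighter Plcd4 probe and Plcg2, and after cyclic loess for Plcb3. With array weights it turned for the brighter Plcb4 probe (-0.11) and Plcd1 (0.41). Intensities near 0.2 limit the dimmer Plcd4 probe, the dimmest Plce1 probe and Plcd1. In the pathway they limit Agtr1b and Prkcb.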
